A study of Mus musculus with 30 samples.

Results

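Wild type dendritic cells exposed to ovalbumin protein (OVA) for 4 h were compared with the same kind of cells exposed for 30 min, and each gene that had moved by 30 min was followed to see whether its change had faded, held or grown by 4 h. The comparison rests on 6 of the 30 RNA sequencing libraries of the series, 3 at each time, and on 14808 genes tested of 25611 rows in the count table. Mouse bone marrow had been kept for 6 to 7 days with the cytokine FLT3L at 200 ng/ml to obtain the cells, and the 6 libraries carry the genotype Rubcn WT, which stands for an intact gene for Rubicon. The 3 Rubcn WT libraries of untreated cells gave the starting level. Libraries of Rubcn KO cells, untreated or given OVA for 30 min or 4 h, 3 of each, were grown and treated under the same labels and served as a second set that shares no library with the wild type. The other 12 libraries came from cells of either genotype given Jurkat cells and entered the filter, the scaling and the shared estimate of the spread, but no comparison. The OVA dose, the source of the OVA, the age of the mice and the harvest time of the untreated cells are not in the labels, so no untreated group matched to 4 h was used here. The titles number the replicates but do not say whether they came from separate mice or cultures, and the p-values measure only the spread between these libraries.

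FLT3L cultures give rise to conventional and plasmacytoid dendritic cells, which take up proteins such as OVA and present their peptides to T cells. When pattern recognition receptors on these cells meet a microbial product, NF-kB and MAP kinases switch on immediate early genes and inflammatory cytokine genes within the first hour, and many of these genes encode inhibitors that shut the signal off again. Interferon beta made in that first wave can act back on the cells through its receptor, and transcription factors that include STAT2 and IRF9 then switch on interferon-stimulated genes in a second wave through a DNA element called the ISRE. Rubicon, the product of Rubcn, acts in LC3-associated phagocytosis, a route by which such cells digest what they engulf.

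The promoters of 4 genes are shown to set the letters of first-wave and second-wave genes side by side: the chemokine Cxcl2, which had risen by 30 min, the NF-kB inhibitor Nfkbia, which went on rising, and the interferon-stimulated genes Ifit1 and Isg15, which were first called at 4 h. Each is the 250 bases before the start of the gene, read 5′ to 3′ on the gene's strand from RefSeq (GRCm38.p6, the mm10 assembly). Capitals mark matches on either strand to the NF-kB motif GGGNNTTTCC or to the ISRE motif TTTCNNTTTC, where N is any base.
Cxcl2, chr5:90903649-90903898, plus strand: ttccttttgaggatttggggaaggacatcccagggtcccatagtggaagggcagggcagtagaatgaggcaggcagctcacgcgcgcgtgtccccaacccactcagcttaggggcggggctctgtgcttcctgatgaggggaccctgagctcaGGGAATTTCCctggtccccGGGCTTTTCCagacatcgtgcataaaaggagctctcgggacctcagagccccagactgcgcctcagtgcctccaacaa
Nfkbia, chr12:55492648-55492897, minus strand: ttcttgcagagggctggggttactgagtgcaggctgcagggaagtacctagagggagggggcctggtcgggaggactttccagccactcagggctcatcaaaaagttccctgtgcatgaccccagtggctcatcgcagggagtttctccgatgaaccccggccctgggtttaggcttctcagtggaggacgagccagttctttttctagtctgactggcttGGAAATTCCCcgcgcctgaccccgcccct
Ifit1, chr19:34640639-34640888, plus strand: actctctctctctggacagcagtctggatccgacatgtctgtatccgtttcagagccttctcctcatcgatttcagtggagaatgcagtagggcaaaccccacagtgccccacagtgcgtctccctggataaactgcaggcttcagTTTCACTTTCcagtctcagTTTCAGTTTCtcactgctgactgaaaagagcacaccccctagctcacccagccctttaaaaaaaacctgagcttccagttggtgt
Isg15, chr4:156200819-156201068, minus strand: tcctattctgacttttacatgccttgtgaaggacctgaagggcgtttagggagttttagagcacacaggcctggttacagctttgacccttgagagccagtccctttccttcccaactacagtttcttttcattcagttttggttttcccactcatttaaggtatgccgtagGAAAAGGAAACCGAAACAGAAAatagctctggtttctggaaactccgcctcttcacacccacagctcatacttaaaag
The Cxcl2 window held 2 NF-kB matches and no ISRE match, and the Nfkbia window held 1 NF-kB match and no ISRE match. The Ifit1 window held 2 ISRE matches and the Isg15 window held 3 that overlap one another, and neither held an NF-kB match. A match is a description of the letters and not evidence that a factor binds there.

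The 6 libraries held 42.4 to 51.6 M counts each. Levels are given as CPM, counts scaled to a common library size after TMM correction for differences in composition, and a gene was called when its Benjamini-Hochberg adjusted p from edgeR's quasi-likelihood test was under 0.05 over all 14808 genes. Rubcn itself stood between 81.3 and 104.6 CPM in the 9 wild type libraries and between 70.4 and 75.8 CPM in the 9 KO libraries. The ranges did not overlap, but the gap was small and gives little check of the labels. Its cause was not tested. The defining dendritic cell genes were present, with Flt3 at 519.9, 564 and 546 CPM and Zbtb46 at 71.5, 80.2 and 78.9 CPM at 30 min. Replicate 3 at 4 h stood apart from the other libraries in stromal and bone-resorbing cell genes. There, 17 genes of at least 5 CPM were at least 3-fold above both other replicates, among them the osteoclast genes Ctsk, at 53.9 CPM against 8.64 and 8.27, and Acp5, at 90.6 against 22.0 and 25.7. Igfbp3, which encodes a binding protein for insulin-like growth factors, stood at 0.296, 0.324 and 16.5 CPM in replicates 1, 2 and 3, and Sfrp4, a secreted Wnt antagonist, at 1.35, 1.27 and 25.7. Both met the rule for the largest rises and neither was called without replicate 3, at log2 fold changes of 0.89 (adjusted p = 0.711) and 0.52 (adjusted p = 0.780), so neither is described further. Replicate 3 was also the lowest of the 4 h libraries for 99 of the 164 genes whose rise of at least 2-fold after 30 min was called without it. Of the 14 markers of stroma or endothelium, 7 were called higher (14.9% of all genes) and 1 lower (14.7%) at 4 h against 30 min, and without replicate 3 the counts were 1 and 1. Their summed level was 950.0 to 978 CPM at 30 min and 978, 988 and 1142 CPM at 4 h.

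By 4 h of OVA, 4396 genes (29.7%) differed from their level at 30 min, 2212 higher (14.9%) and 2184 lower (14.7%). The rises were the larger changes: 248 genes (1.67%) were at least 2-fold higher and 28 (0.189%) at least 2-fold lower. Of the 248, the 164 above were also called without replicate 3 at 4 h, and the whole count at that size was then 191. The median size of a called change was 0.24 on the log2 scale, so most called genes moved by less than 1.5-fold, and 497 rises and 102 falls passed that size. In 6138 genes (41.5%) the 3 libraries of one time did not overlap the 3 of the other. The largest rises that did not rest on replicate 3 were in the scavenger receptor Marco, the CXCR3 ligands Cxcl9 and Cxcl10, the interferon-stimulated genes Rsad2, Ifit1, Ifit2, Ifit3, Ifit3b and Oasl1, the itaconate enzyme Acod1, the formyl peptide receptors Fpr1 and Fpr2 and the dicarboxylate transporter Slc13a3. The largest falls were in Zc3h6, Xylt1, Ngfr, Cirbp and Slco2b1, none of which reached 2-fold; these are genes of at least 5 CPM at one of the times, and the 28 falls of at least 2-fold were all in genes with means below 5 CPM at both.

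At 30 min, 1578 genes (10.7%) had already moved from the untreated level, 816 up (5.51%) and 762 down (5.15%). An early change was said to have faded when 4 h against 30 min was called in the opposite direction, to have grown when it was called in the same direction, and to have held when it was not called but the gene still differed from untreated cells at 4 h in its first direction. Of the 816 early rises, 465 faded, 147 held, 82 grew and 122 were unresolved. The 762 early falls divided into 353 that faded, 185 that held, 38 that grew and 186 unresolved. Among the genes that held, the 95% interval of the change between 30 min and 4 h lay within 1.5-fold in 137 of 147 rises and 182 of 185 falls. Most of the fading was a return: 393 of the 465 faded rises and 323 of the 353 faded falls were not called against untreated cells at 4 h, while 62 and 17 had crossed to the other side of the untreated level. A further 2123 genes were first called at 4 h, 1145 higher (7.73%) and 978 lower (6.60%), and 190 of the rises and 11 of the falls were at least 2-fold. How many of the 190 rest on replicate 3 at 4 h was not counted. Of all 248 rises of at least 2-fold after 30 min, 84 were not called without it. The balance of rises and falls depended on the scaling. Rises made up 53.9% of the genes first called at 4 h here, 46.7% when scaled by total counts and 49.8% by DESeq2. Of all genes called at 4 h against 30 min they made up 50.3%, against 45.1% when scaled by total counts and 55.1% without the Jurkat libraries, where early rises were 47.6% of the genes that faded in place of 56.8%.

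**Figure D1:**
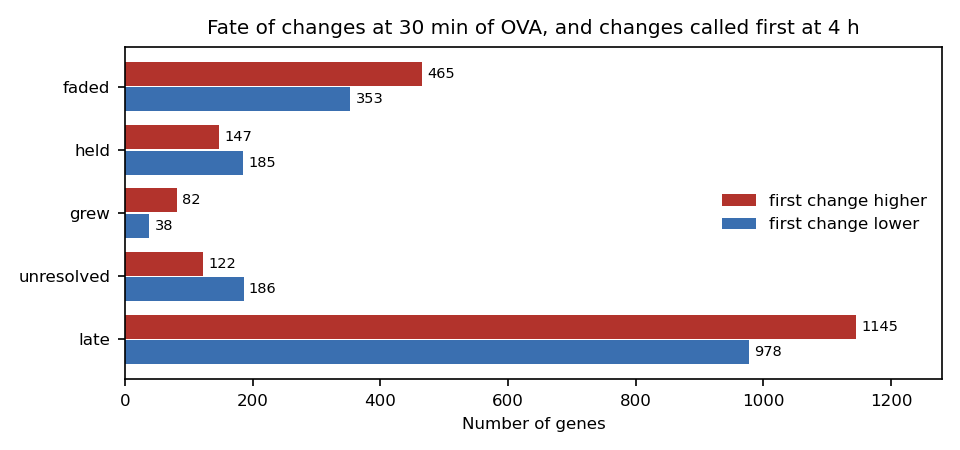
Number of genes in each class, on the horizontal axis, for early changes upward (red) and downward (blue) at 30 min of OVA in Rubcn WT cells, and for genes first called at 4 h. Fading was the most frequent class of early rises (465) and early falls (353), and 1145 late rises and 978 late falls were called, an order that turned under scaling by total counts and with DESeq2.

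The 30 min libraries enter both sides of a fate, so a gene that stood high at 30 min by chance is more easily called early and then called as faded. A pair of further counts was made. The first applies a size cut to the same wild type libraries, so it cannot remove this dependence. The second takes the early genes from KO libraries, which the wild type comparisons do not use. Among the 107 early changes of at least 1.5-fold (0.723%), 30 faded, 36 held, 20 grew and 21 were unresolved, and the 20 that grew were all rises. When early genes were chosen in the KO libraries instead, 558 genes (3.77%), 279 in each direction (1.88%), the wild type libraries showed fading in 130 of the rises and 124 of the falls, growth in 58 and 26, and a hold in 48 and 67. The share of early rises that faded was 57.0% when chosen in wild type and 46.6% when chosen in KO. The number of early calls also depended on single libraries: without replicate 1 or 2 of the 30 min group it was 903 or 966, and without untreated replicate 2 or 3 it was 907 or 1043. Genes that faded then numbered 485, 474, 499 and 619, and genes that grew 71, 71, 72 and 78. The early count in KO was 173 without KO 30 min replicate 2, 287 without replicate 3, 334 and 361 without untreated KO replicates 2 and 3, and 246 when only the groups compared were fitted.

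Of the 81 early rises of at least 1.5-fold, 31 held, 20 grew, 18 faded and 12 were unresolved. The gene that grew most was Acod1 (Entrez 16365, chromosome 14, 103047012 to 103056573), the enzyme that makes itaconate from cis-aconitate. Acod1 stood at 1.76, 1.49 and 1.35 CPM in the untreated libraries, at 10.98, 10.2 and 10.3 CPM at 30 min and at 119, 117 and 83.5 CPM at 4 h. The 3 groups did not overlap, and the log2 fold change was 2.78 ± 0.51 (SE) by 30 min (adjusted p = 5.65e-04) and a further 3.34 ± 0.33 from 30 min to 4 h (adjusted p = 1.55e-08). Clec4e, which encodes the lectin receptor Mincle, went from 3.74, 3.36 and 3.29 CPM to 13.6, 11.8 and 10.7 and then to 59.3, 54.1 and 42.6. The chemokine Ccl4 went from 3.18, 3.15 and 2.76 CPM to 6.38, 6.098 and 6.94 and then to 29.4, 29.8 and 20.9. In both genes each group lay wholly above the one before, with log2 fold changes from 30 min to 4 h of 2.11 ± 0.19 (adjusted p = 3.13e-09) and 2.04 ± 0.18 (adjusted p = 1.81e-09). Gpr84, a receptor for medium-chain fatty acids, had means of 0.914, 3.14 and 11.9 CPM, and Cdc42ep2, an effector of the GTPase Cdc42, had means of 2.38, 6.25 and 8.64. The bacterial lipid co-receptor Cd14 almost doubled in each interval, at 31.5, 30.4 and 28.8 CPM, then 57.8, 53.5 and 55.5, then 108, 116 and 90.5. Acod1, Clec4e, Ccl4, Gpr84 and Cd14 were lowest at 4 h in replicate 3, which still lay above every 30 min library.

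Early falls that grew were smaller. Abcg3, an ABC transporter gene, stood at 13.5, 12.6 and 10.6 CPM untreated, 9.502, 9.503 and 9.05 at 30 min and 7.73, 6.61 and 7.72 at 4 h, with a log2 fold change from 30 min to 4 h of -0.35 ± 0.09 (adjusted p = 0.00336). Hepacam2 had means of 89.7, 74.8 and 61.9 CPM, and the TNF superfamily ligand Tnfsf14 means of 10.8, 7.94 and 6.596. The fall of Tnfsf14 between the times (adjusted p = 0.0134) was lost without replicate 3 at 4 h. Fmo5 and Map2k6, at log2 fold changes of -0.24 and -0.22, lost their call under several settings.

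**Figure D2:**
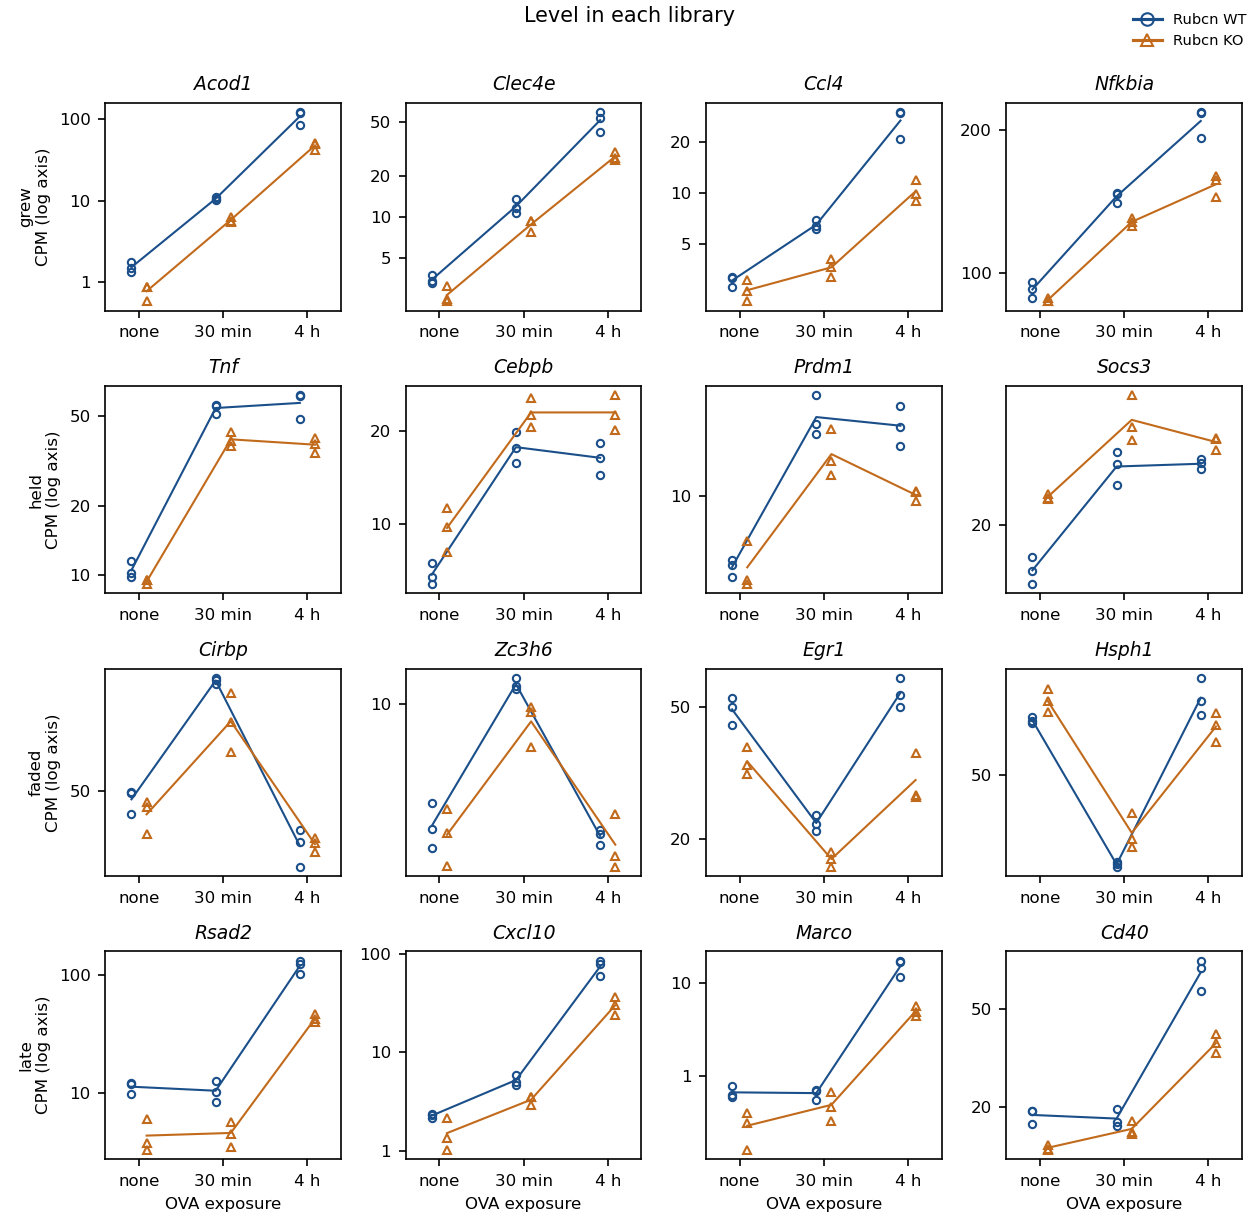
CPM in each library (log axis) of 16 genes against exposure to OVA, with Rubcn WT as circles, Rubcn KO as triangles and lines through the group means. Rows show genes that grew, held, faded or were first called at 4 h in Rubcn WT; Acod1 climbed at both steps, Tnf reached its level by 30 min, Cirbp returned and Rsad2 was first called at 4 h.

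A second set of early inflammatory genes had reached its level by 30 min. Tnf (Entrez 21926, chromosome 17, 35199367 to 35202007), the cytokine tumour necrosis factor, stood at 9.73, 11.5 and 10.2 CPM untreated, 56.1, 55.2 and 51.1 at 30 min and 61.6, 60.9 and 48.5 at 4 h. Both treated groups lay far above the untreated one and overlapped each other. The log2 fold change was 2.37 ± 0.10 by 30 min (adjusted p = 5.33e-16) and 0.07 ± 0.09 from 30 min to 4 h, with a 95% interval of -0.11 to 0.26 (adjusted p = 0.590). The transcription factor gene Cebpb stood at 6.701, 6.38 and 7.45 CPM, then 15.7, 17.5 and 19.9, then 16.4, 18.3 and 14.4. Prdm1, which encodes the repressor Blimp-1, stood at 6.97, 6.79 and 6.35 CPM, then 17.5, 14.9 and 14.1, then 16.5, 14.6 and 13.2. For both, the 2 treated groups overlapped and the interval of the change between them was -0.40 to 0.16 for Cebpb and -0.25 to 0.10 for Prdm1 on the log2 scale. Socs3, an inhibitor of cytokine receptor signalling, behaved alike, with means of 15.4, 27.9 and 28.4 CPM and an interval of -0.16 to 0.20. Wider intervals were found for Egr2 (-0.56 to 0.00) and for the prostaglandin synthase Ptgs2 (0.05 to 0.91, adjusted p = 0.0839), and Ptgs2 was called higher at 4 h under some settings. Scarcer cytokine genes were not called between the times but had wide intervals. The neutrophil chemokine Cxcl1 had means of 0.463, 3.35 and 2.64 CPM, Il1a of 0.505, 1.52 and 1.79, and Il10 of 0.268, 0.866 and 0.590. Their log2 intervals were -0.71 to -0.01, which leaves out 0, -0.43 to 0.85 and -1.10 to 0.05. Among early falls that held, Narf had means of 65.9, 50.3 and 54.05 CPM, Spice1 of 16.9, 12.3 and 13.7, and the lectin gene Clec4g of 6.75, 5.07 and 5.21; Narf and Spice1 were called higher at 4 h than at 30 min under several settings. The unresolved early rises included the phagocytic receptor Mertk, with means of 16.4, 21.6 and 18.1 CPM, and the fungal glucan receptor Clec7a, of 58.5, 78.04 and 71.9 CPM, which were called against neither 30 min nor untreated cells at 4 h.

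Of the rises that faded, in genes of at least 5 CPM at 30 min or 4 h, the largest by 30 min was that of Cxcl2 (Entrez 20310, chromosome 5, 90903899 to 90905938), a chemokine that attracts neutrophils, but it faded only slightly. Cxcl2 stood at 0.957, 0.367 and 0.612 CPM in the untreated libraries, 22.1, 19.9 and 18.4 at 30 min and 17.1, 17.03 and 11.7 at 4 h, so all 6 treated libraries lay far above the untreated ones and the 4 h group lay below the 30 min group. The log2 fold change was 4.96 ± 0.21 by 30 min and -0.41 ± 0.12 from 30 min to 4 h (adjusted p = 0.0128), and Cxcl2 was still 4.56 above untreated at 4 h on the log2 scale (adjusted p = 2.29e-15). The fall was not called without replicate 3 at 4 h (log2 -0.24, adjusted p = 0.145) or without replicate 1 at 30 min (log2 -0.34, adjusted p = 0.0699).

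A return past the untreated level was seen in Cirbp (Entrez 12696, chromosome 10, 80167841 to 80171653), which encodes a cold-inducible RNA-binding protein. Cirbp stood at 49.8, 49.7 and 46.2 CPM untreated, 73.3, 73.8 and 72.3 at 30 min and 38.5, 41.9 and 43.8 at 4 h. All 3 libraries at 30 min lay above every other wild type library, and those at 4 h lay below every untreated one, at a log2 fold change of -0.82 ± 0.07 from 30 min to 4 h (adjusted p = 3.62e-10) and -0.23 from untreated to 4 h (adjusted p = 0.0124). Zc3h6, a CCCH zinc finger gene, stood at 6.86, 5.76 and 6.205 CPM, then 11.04, 10.7 and 10.6, then 6.18, 6.09 and 5.83, a log2 fold change of -0.84 ± 0.09 after 30 min (adjusted p = 1.23e-07). Ndnf had means of 5.78, 8.85 and 5.66 CPM. Dennd4a, which encodes an activator of the GTPase Rab10, came only part way back, with means of 104, 157 and 128 CPM. Among signalling genes, the nuclear receptor gene Nr4a1 (18.4, 25.95 and 20.3 CPM), the MAP kinase phosphatase Dusp16 (47.95, 61.3 and 48.7 CPM), the RNase gene Zc3h12a (29.9, 42.04 and 38.5 CPM) and the interferon receptor subunit Ifnar1 (379, 446 and 377 CPM) faded too.

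The falls that faded included the immediate early transcription factor genes Fosb and Egr1, which had fallen most by 30 min among genes of at least 5 CPM at 30 min or 4 h, and every heat shock gene called at 30 min. Egr1 stood at 44.2, 53.1 and 50.1 CPM untreated, 23.7, 21.2 and 22.3 at 30 min and 61.00, 54.3 and 50.02 at 4 h. The 30 min libraries lay below all the others, which overlapped, and the log2 fold change was -1.13 ± 0.10 by 30 min and 1.30 ± 0.10 from 30 min to 4 h (adjusted p = 1.09e-10). Banp and Tfcp2, a pair of transcription factor genes, had means of 39.9, 26.8 and 33.2 CPM and of 6.28, 4.299 and 5.85 CPM, and Wdcp of 6.41, 4.27 and 5.98 CPM. Fosb, a partner in the AP-1 factor, went from 8.28, 9.85 and 8.61 CPM to 3.93, 3.65 and 3.49 and came part way back to 5.97, 4.900 and 4.61. Fos and Junb were first called at 4 h, with means of 70.2, 62.9 and 93.8 CPM and of 172, 189 and 268 CPM. Of 30 immediate early genes tested, 6 rose and 2 fell by 30 min (5.51% and 5.15% of all genes), and 12 rose and 4 fell from 30 min to 4 h (14.9% and 14.7% of all genes). Their median change after 30 min was 0.20 against 0.00 for all genes. The falls were near the share over all genes.

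Of 18 heat shock and co-chaperone genes, 6 fell by 30 min (5.15% of all genes), and all 6 faded. None rose by then (5.51% of all genes), with 1 higher at an unadjusted p under 0.05 and none by DESeq2. Hsph1 (Entrez 15505, chromosome 5, 149616845 to 149636336), an Hsp110 chaperone gene, stood at 56.5, 57.4 and 56.8 CPM untreated, 40.2, 40.7 and 40.5 at 30 min and 59.5, 62.9 and 57.6 at 4 h. Its 30 min libraries lay below all others, and it fell by a log2 fold change of -0.49 ± 0.06 (adjusted p = 1.10e-06) and rose by 0.57 ± 0.06 (adjusted p = 1.57e-08). Hspa8, the constitutive Hsc70 chaperone, stood at 1107, 1174 and 1144 CPM, then 875, 883 and 919.6, then 1165, 1206 and 1134. The Hsp90 co-chaperone gene Chordc1 had means of 71.6, 55.9 and 76.3 CPM, and the J-domain co-chaperone Dnaja1 of 65.4, 54.5 and 72.7. The same course was shallower in Dnajb1 (65.1, 56.5 and 63.5 CPM) and in Ahsa1 (104, 96.3 and 108 CPM), an activator of the Hsp90 ATPase whose early fall was called in only 1 of 6 fits that left out a library. The stress-inducible Hspa1a and Hspa1b rose from 0.869 to 2.14 CPM and from 1.19 to 2.57 CPM; they are near-identical copies whose reads cannot be told apart with certainty. In all, 10 of 18 rose (14.9% of all genes) and none fell (14.7%) from 30 min to 4 h, at a median of 0.15.

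In the KO libraries, which share none with the wild type, Hsph1 stood at 45.7, 42.2 and 42.95 CPM at 30 min and 57.9, 54.03 and 56.3 at 4 h, and Cirbp at 57.2, 63.5 and 69.98 and 41.7, 42.6 and 40.6. Against untreated KO cells at 30 min, Hsph1 was lower (log2 -0.45, adjusted p = 1.93e-05), as were Chordc1 (-0.37, adjusted p = 0.00812) and Hspa8 (-0.26, adjusted p = 0.00342), and Cirbp was higher (0.44, adjusted p = 1.73e-04). Between 30 min and 4 h, 4 of the 18 heat shock genes rose in KO (6.50% of all genes), namely Hsph1, Hspa8, Dnaja1 and Chordc1. Cirbp fell there (log2 -0.59, adjusted p = 1.19e-06). Rbm3, the other cold-inducible RNA-binding protein gene, was looked up after the values of Cirbp were seen: in wild type it had means of 226, 248 and 224 CPM, was not called by 30 min (adjusted p = 0.0767) and fell after it at a log2 fold change of -0.15 ± 0.05 (adjusted p = 0.0202). As background, mild cold induces Cirbp and Rbm3 and heat induces heat shock genes. The temperature at which each group was handled is not in the labels, and its part in these changes was not tested.

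**Figure D3:**
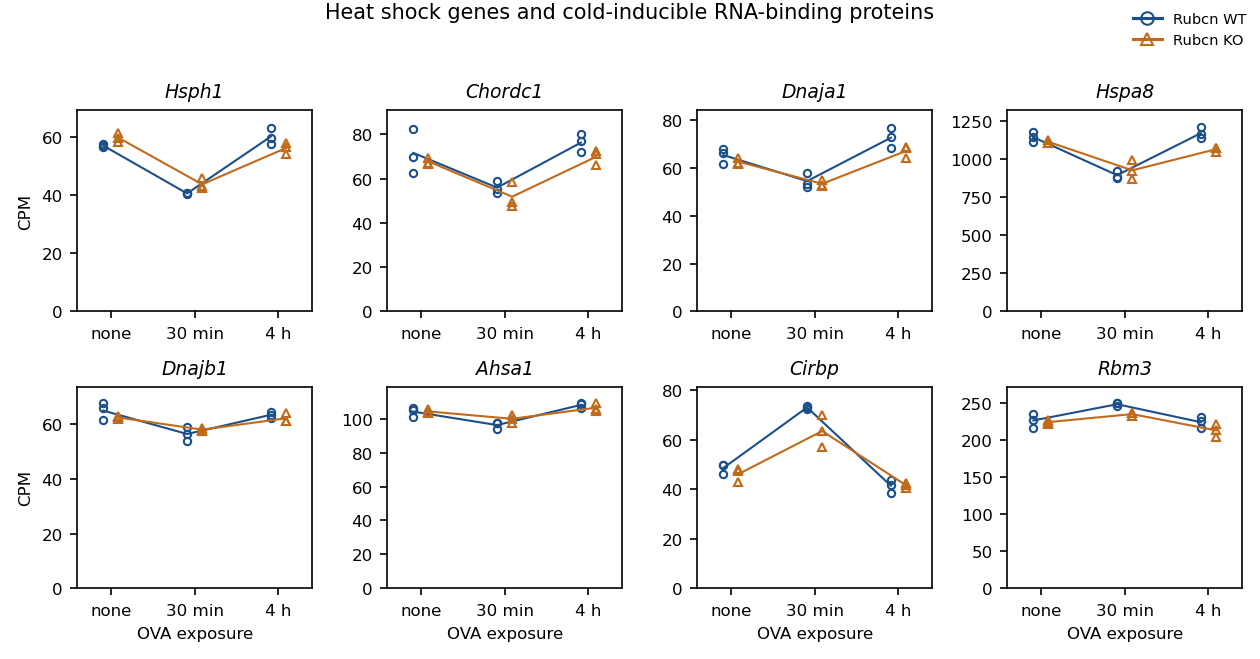
CPM in each library of 6 heat shock genes, Cirbp and Rbm3 against exposure to OVA, with Rubcn WT as circles, Rubcn KO as triangles and lines through the group means; axes start at 0. Hsph1, Chordc1 and Hspa8 were lower and Cirbp higher at 30 min than in untreated cells in both genotypes.

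Interferon-stimulated genes were not called at 30 min and rose together by 4 h. Of 45 tested, none was called at 30 min in either direction (10.7% of all genes), at a median of -0.14 from untreated, by edgeR (1 higher and 1 lower at an unadjusted p under 0.05) or by DESeq2, and all 45 were called higher at 4 h against 30 min (14.9% of all genes). Their median log2 fold change was 1.06 against 0.00 for all genes. The 3 libraries of one time overlapped the other in none of the 45, and 41.5% of all genes had no such overlap. At 4 h against untreated cells 44 were called higher (11.9% of all genes), Bst2 being the exception. The median of the list from untreated to 4 h was 0.93. Rsad2 (Entrez 58185, chromosome 12, 26442743 to 26456452), which encodes the antiviral enzyme viperin, stood at 12.2, 9.75 and 11.96 CPM untreated, 10.2, 8.402 and 12.7 at 30 min and 133, 126 and 103 at 4 h. Ifit1, an RNA-binding antiviral gene, stood at 12.4, 11.02 and 11.6 CPM, then 8.13, 6.91 and 11.2, then 87.5, 82.2 and 71.4. Isg15, a ubiquitin-like modifier, stood at 21.7, 19.5 and 21.7 CPM, then 14.5, 15.9 and 23.7, then 74.8, 76.7 and 68.99. In all 3 genes the untreated and 30 min libraries overlapped, though some 30 min libraries of Ifit1 and Isg15 lay below every untreated one. The 4 h libraries of all 3 genes lay several-fold above both groups, with log2 fold changes from 30 min of 3.53 ± 0.44 (adjusted p = 6.08e-07), 3.20 ± 0.39 (adjusted p = 3.62e-07) and 2.03 ± 0.30 (adjusted p = 7.24e-06). Among the transcription factors of the pathway, Irf7 went from 118, 128 and 161 to 249.5, 266 and 268 CPM. Stat2, Irf9 and Irf1 rose less, by 0.34, 0.15 and 0.14. The lowest changes in the list were those of Irf1 and Bst2, and without replicate 3 at 4 h the list kept 42 calls.

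**Figure D4:**
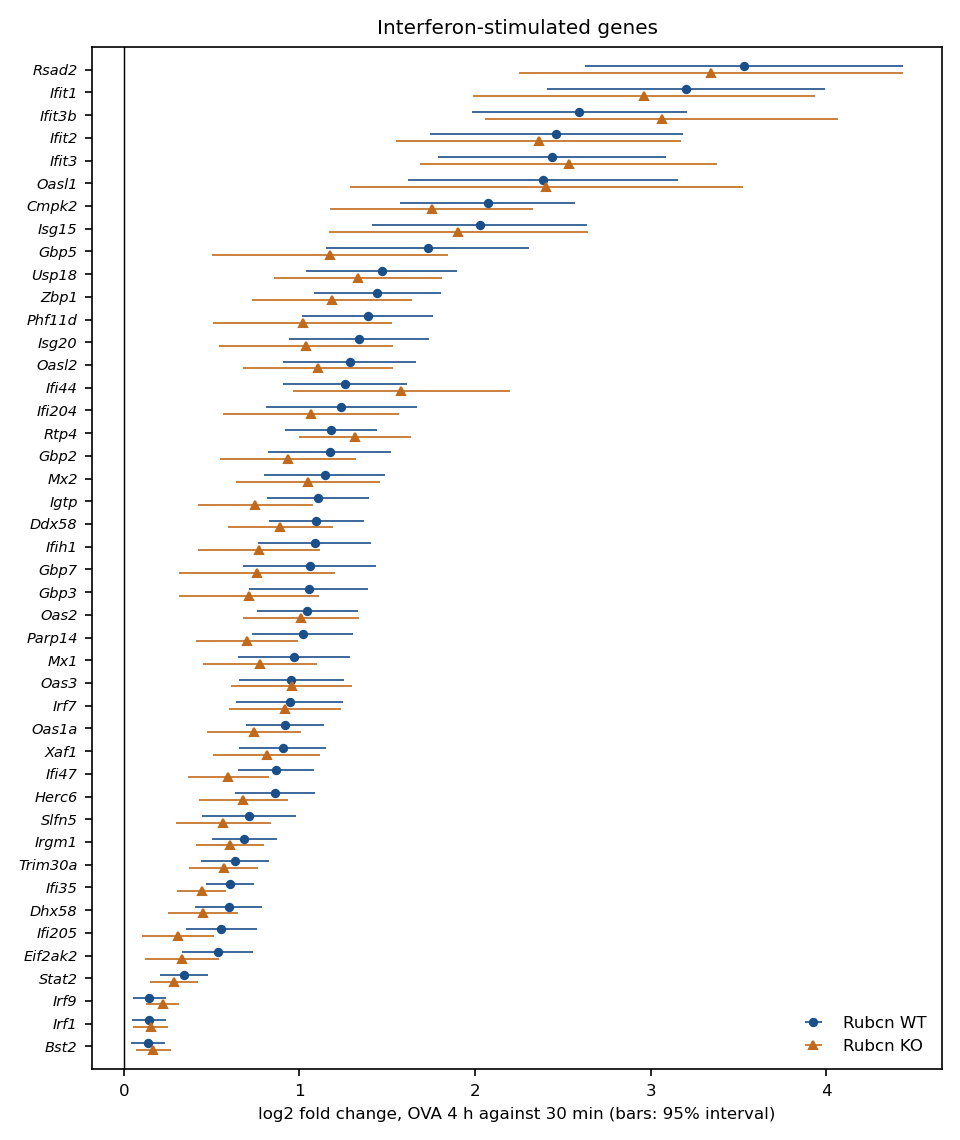
Log2 fold change at 4 h against 30 min of OVA for 44 interferon-stimulated genes, with 95% intervals, in Rubcn WT (circles) and Rubcn KO (triangles). All 44 lie above 0 in both genotypes, from Bst2 at 0.14 to Rsad2 at 3.53 in Rubcn WT.

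The interferon genes themselves were scarce. Ifnb1 had 3 counts over the 3 libraries at 30 min, 21 over the 3 at 4 h and 0 in the untreated libraries. Scaled by total counts, the ratio of 4 h to 30 min was 6.94. Its 95% counting interval of 2.07 to 36.4 pools the libraries and leaves out the spread between them. Ifna1, Ifna2 and Ifna4 had 2, 5 and 2 counts at 30 min and none at 4 h, and Ifna5 had none at either time. Of 16 genes of interferon receptor signalling, 5 rose (14.9% of all genes) and 3 fell (14.7%) at 4 h against 30 min, at a median of 0.01. The rises included Stat2, Irf9, Ifnb1 and the receptor subunit Ifngr2. Ifnar1, Ifnar2 and Ifngr1 were those that fell, at log2 fold changes of -0.24, -0.19 and -0.16. The number of falls was near the share over all genes. Without replicate 2 at 30 min, 3 of the 16 rose.

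Chemokine genes were split between the waves. Of 22 tested, 5 rose by 30 min (5.51% of all genes), namely Cxcl2, Cxcl1, Ccl3, Ccl4 and Ccl9. From 30 min to 4 h, 17 rose (14.9% of all genes) and Cxcl2 alone fell (14.7%), at a median of 1.03. Cxcl10, a ligand of CXCR3, stood at 2.32, 2.16 and 2.33 CPM untreated, 5.03, 4.69 and 5.898 at 30 min and 84.8, 78.6 and 59.1 at 4 h, and Cxcl9, another, at 0.913, 1.14 and 1.04, then 0.998, 0.918 and 1.32, then 20.7, 15.6 and 11.5. Both rose more than 10-fold on average after 30 min, and the 30 min libraries of Cxcl10 lay above the untreated ones without a call (adjusted p = 0.273). Abundant dendritic cell chemokines rose less: Ccl9 from 179 to 344 CPM, Ccl22, which binds CCR4, from 137 to 285 CPM and Cxcl16 from 83.5 to 158 CPM. Cxcl3 had 32 counts in all at 30 min and 271 at 4 h, and Cxcl11 6 and 128. The monocyte attractants Ccl2 and Ccl7 rose from 2.68 to 6.15 and from 2.104 to 4.24 CPM.

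The NF-kB system rose in its inhibitors and subunits of the alternative pathway. Of 30 genes tested, 11 rose by 30 min and none fell (5.51% and 5.15% of all genes). From 30 min to 4 h, 23 rose (14.9% of all genes) and 1 fell (14.7%), at a median of 0.33. Of the 11 early rises 9 grew, Nfkbiz held and Zc3h12a faded, and another 13 were first called higher at 4 h (7.73% of all genes). Nfkbia (Entrez 18035, chromosome 12, 55489409 to 55492647), which encodes the inhibitor IkB alpha, stood at 88.8, 96.01 and 92.8 CPM, then 147, 141 and 148, then 218, 217 and 192. Tnfaip3, which encodes the ubiquitin-editing enzyme A20, stood at 57.6, 57.8 and 58.8 CPM, then 98.2, 96.8 and 93.5, then 129.6, 121 and 113. Each group lay above the one before in both genes. Relb and Nfkb2, the subunits of the alternative pathway, were first called at 4 h, going from 78.1 to 131 CPM and from 134 to 225 CPM, whereas Rela, Rel and the kinase gene Ikbkb were not called in either comparison with 30 min. Ikbke, an IkB kinase that also acts in interferon induction, rose from 21.4, 18.1 and 20.8 CPM to 60.4, 66.2 and 56.9. The adhesion molecule Icam1, the mitochondrial superoxide dismutase Sod2 and the adaptor Traf1 rose by log2 0.79, 0.68 and 0.90.

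**Figure D5:**
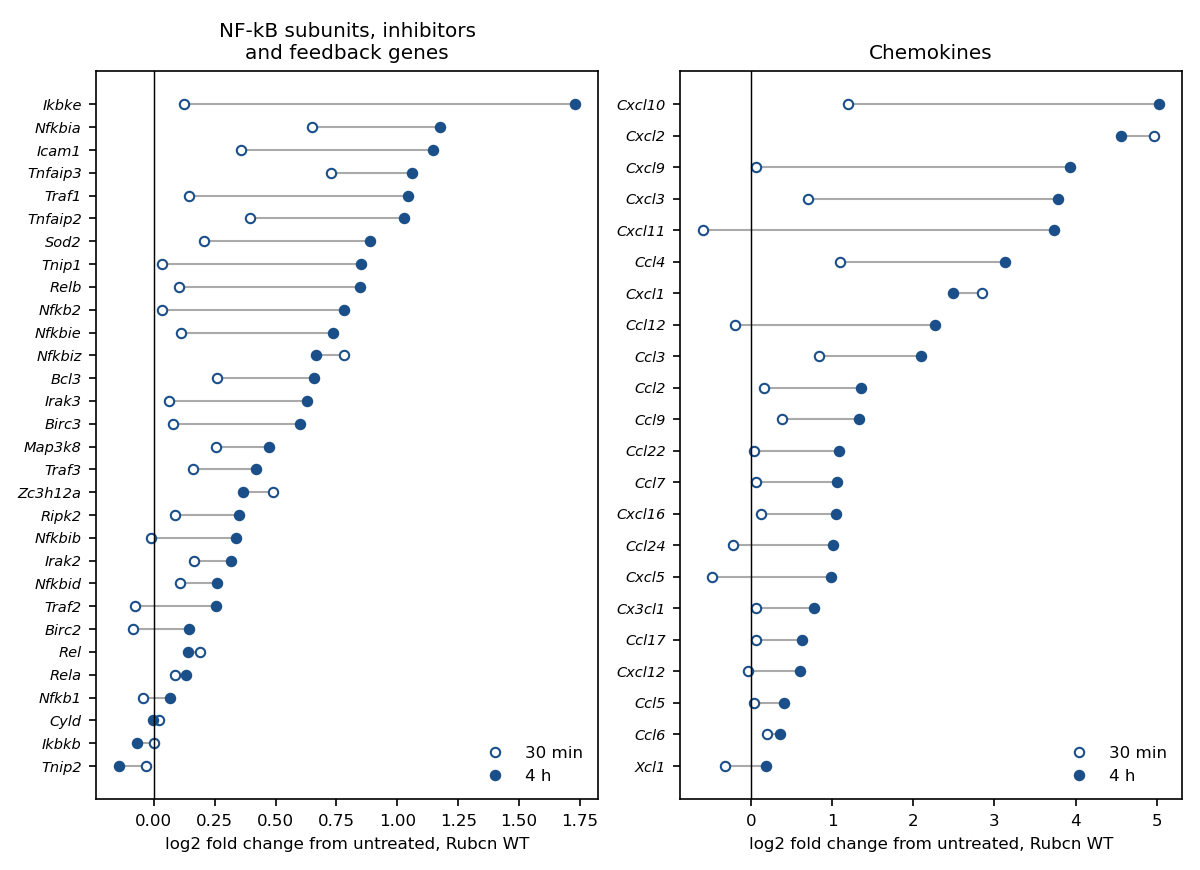
Log2 fold change from untreated in Rubcn WT at 30 min (open circles) and 4 h (filled circles) for 30 NF-kB genes and 22 chemokine genes, joined per gene; both times share the untreated libraries. Filled circles lie to the right of open ones for most genes, and Cxcl2, Cxcl1, Nfkbiz and Zc3h12a are among the few that lie to the left.

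Receptors and costimulatory genes of mature dendritic cells also rose after 30 min. Cd40, the receptor for T cell help, stood at 17.1, 19.3 and 19.2 CPM untreated, 16.7, 17.4 and 19.6 at 30 min and 78.7, 73.8 and 59.5 at 4 h, a log2 fold change of 1.98 ± 0.26 after 30 min (adjusted p = 1.39e-06). The 4 h libraries lay more than 3-fold above the mean of the 30 min libraries. Of 32 genes of maturation and migration, 6 rose by 30 min (5.51% of all genes), or 1 to 3 in fits that left out a library. From 30 min to 4 h, 22 rose (14.9% of all genes) and 1 fell (14.7%), at a median of 0.35. Cd83 and the T cell inhibitory ligand Cd274 grew, with means of 133, 172 and 217 CPM and of 12.9, 19.3 and 35.4 CPM, while Cd86 held, with a log2 interval of -0.06 to 0.22. Ccr7, the homing receptor, rose by 0.23 ± 0.08 (adjusted p = 0.0362) and Il12b was not called (adjusted p = 0.666). Marco (Entrez 17167, chromosome 1, 120474538 to 120505084), a scavenger receptor, stood at 0.623, 0.776 and 0.592 CPM, then 0.707, 0.693 and 0.554, then 16.7, 17.3 and 11.6, and Fpr1 had means of 0.733, 0.980 and 6.34 CPM. Of 30 pattern recognition genes 12 rose (14.9% of all genes) and 2 fell (14.7%), Mrc1 and Tirap. Without replicate 1 at 30 min none fell, and in 3 other fits that left out a library 1 did. The rises included Cd14, Tlr1, Nod2, Nod1 and Tlr2, and Irf3 and Tmem173, which encodes STING, were among 4 that had dipped at 30 min and came back. The early dips were 2 without replicate 1 at 30 min or untreated replicate 2.

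Markers of other cell types were checked beside these rises. Of 14 monocyte or macrophage markers, 9 rose (14.9% of all genes) and none fell (14.7%) from 30 min to 4 h. The rises were Cd14, Adgre1, Cx3cr1, the complement genes C1qa, C1qb and C1qc, Apoe, Fcgr1 and Ly6c2. There was 1 marker lower at an unadjusted p under 0.05, and DESeq2 called 1 lower. Without replicate 3 at 4 h, 9 of the 14 rose. Their summed level was 2986 to 3388 CPM at 30 min and 3507 to 3799 CPM at 4 h, against 2728 to 3275 CPM in untreated libraries. In these bulk libraries more cells of a type and more RNA per cell cannot be told apart, and the part of such cells in the rises of Marco, Fpr1 and other genes of myeloid cells was not tested. Neutrophil markers were called higher in 3 of 14, near the share over all genes (14.9%), and in 2 without replicate 3 at 4 h. No marker of T cells (11 tested), B cells (11) or basophils and mast cells (9) was called by edgeR (29.7% of all genes) or DESeq2. At an unadjusted p under 0.05 these lists had 0, 1 and 0. Among dendritic cell markers, 4 rose and 1 fell of 12 plasmacytoid genes, against 14.9% and 14.7% of all genes. Of 12 type 1 genes 3 rose and 4 fell, and of 12 type 2 genes 6 rose and 3 fell. Without replicate 3 at 4 h, 3 plasmacytoid and 4 type 2 genes rose and 2 type 1 genes fell.

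Cytokine genes rose in 11 of 32 (14.9% of all genes) and fell in none (14.7%) from 30 min to 4 h, at a median of 0.21. There was 1 lower at an unadjusted p under 0.05 and none by DESeq2. By 30 min, 6 had risen (5.51% of all genes). Lif, Il15, which sustains T cells and NK cells, and Tnfsf10, the death ligand TRAIL, rose from 2.41 to 5.06, from 6.51 to 11.4 and from 2.73 to 5.44 CPM. Il1rn, the interleukin 1 receptor antagonist, rose from 18.8 to 30.5 CPM, and Il1b grew from 43.2, 42.5 and 43.2 to 67.9, 57.8 and 47.9 CPM. Il6 was scarce, with 53 counts over the 30 min libraries and 163 over the 4 h libraries, and was not called (adjusted p = 0.0903). Of 30 feedback genes of MAP kinase, cytokine and mRNA decay pathways, 11 had risen by 30 min (5.51% of all genes). Of the 11, 6 held (Socs3, Dusp4, Dusp1, Pim1, Spred1 and Cish), 2 grew (Dusp2 and Gadd45b), 2 faded (Dusp16 and Spred2) and Dusp8 was unresolved. In fits that left out a 30 min or untreated library, Cish was called early only without replicate 1 at 30 min. Gadd45b was called early only without untreated replicate 1. After 30 min, 12 of the 30 rose (14.9% of all genes) and 5 fell (14.7%). These falls were near the share over all genes, and they were 2 or 3 in 5 of the 6 fits that left out a compared library.

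Metabolic and stress genes showed smaller steps. Of 26 genes of cholesterol synthesis and uptake, most of them targets of the factor SREBP-2, 11 rose by 30 min (5.51% of all genes). Hmgcs1, Sc5d and Hsd17b7 were among them, and none fell (5.15% of all genes). Hmgcs1, which encodes an early enzyme of the synthesis, stood at 193, 171 and 170.1 CPM untreated, 250.4, 271 and 236 at 30 min and 263, 241 and 225 at 4 h. Of the 11, 8 held, Msmo1 and Sqle grew, and Insig1, which retains SREBP-2 in the endoplasmic reticulum, faded from 136 to 113 CPM. Among fits that left out a 30 min or untreated library, Sqle was called early only in the fit without replicate 3 at 30 min. The step after 30 min moved 7 of the 26 up (14.9% of all genes) and 2 down (14.7%). The rises were 3 without replicate 1 at 4 h and 4 without replicate 3 at 30 min. Of 22 genes of the oxidative stress factor NRF2, 8 had risen by 30 min (5.51% of all genes), or 5 without untreated replicate 2. After 30 min, 14 rose (14.9% of all genes) and none fell (14.7%), at a median of 0.22. Without replicate 2 at 4 h, 9 rose. They included the thioredoxin reductase Txnrd1 with means of 132, 174 and 226 CPM. The cystine transporter Slc7a11 grew from 10.96, 9.89 and 9.602 CPM to 20.6, 19.5 and 13.9 and the heme oxygenase Hmox1 was first called at 4 h, from 65.00 to 87.9 CPM. Inducible nitric oxide synthase, Nos2, had 4 counts over the 30 min libraries and 110 over the 4 h libraries. Scaled by total counts, the ratio was 27.3, with a 95% counting interval of 10.4 to 101.9 that leaves out the spread between libraries. Of 21 genes for itaconate, nitric oxide, prostaglandin and tryptophan enzymes, 12 rose (14.9% of all genes) and 3 fell (14.7%), at a median of 0.53. The falls were near the share over all genes.

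Genes of antigen presentation were counted by MHC class, and the difference between the classes was not tested. Of 28 genes of MHC class I processing and presentation none was called by 30 min by edgeR (10.7% of all genes) or DESeq2. At an unadjusted p under 0.05, 1 was higher and 1 lower. Afterwards 18 rose (14.9% of all genes) and 3 fell (14.7%), at a median of 0.13. In fits that left out a library 14 to 17 rose, and none or 1 fell in 5 of the 6. H2-K1, a class I heavy chain, rose from 1142 to 1419 CPM, Nlrc5, the class I transactivator, from 124 to 198, and Psme2, a proteasome activator subunit, from 223 to 287. Reads of H2-K1 and other class I genes may be shared between near-identical copies. Of 17 class II genes 3 rose and 3 fell, near the shares over all genes. None rose without replicate 2 at 4 h or replicate 1 at 30 min, and 1 without replicate 2 at 30 min. March1, the ubiquitin ligase that lowers surface class II, fell from 177 to 143 CPM. The unfolded protein response (9 of 25 higher, 3 lower), glycolysis and hypoxia (8 of 27 higher, 4 lower), the cell cycle (6 of 30 higher, 8 lower) and cytoplasmic ribosomal proteins (10 of 34 higher, none lower) had medians of 0.08, 0.06, 0.04 and 0.10. Over all genes 14.9% were called higher and 14.7% lower, near the shares of falls in the unfolded protein response and glycolysis lists and of rises in the cell cycle list. The ribosomal count was 2 without replicate 2 of either time and 5 without replicate 1 at 30 min. The glycolysis rises were 5 without replicate 2 at 4 h and its falls 2 without replicate 1 at 4 h or replicate 2 at 30 min, and the cell cycle falls were 4 or 5 without replicate 1 at 4 h or replicate 2 or 3 at 30 min.

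The genes that fell most after 30 min were smaller movers than those that rose. Cd33, an inhibitory lectin that binds sialic acid, stood at 111, 108 and 111 CPM untreated, 116, 122 and 116 at 30 min and 75.6, 70.00 and 77.3 at 4 h. All 4 h libraries lay below all earlier ones, at a log2 fold change of -0.67 ± 0.06 (adjusted p = 1.02e-09). The integrin gene Itga6 stood at 33.3, 29.7 and 30.04 CPM, then 38.99, 34.3 and 29.98, then 21.2, 21.2 and 21.3, with the same separation. Xylt1, a xylosyltransferase that starts proteoglycan chains, Fbxo32, a ubiquitin ligase subunit, and Klf11, a transcription factor, had risen by 30 min and then fell past the untreated level, with means of 6.23, 8.32 and 4.69 CPM, of 20.4, 24.1 and 14.8 CPM and of 11.8, 14.7 and 9.303 CPM. Map3k9, a kinase gene, and Il18rap, a subunit of the interleukin 18 receptor, had means of 77.4, 103 and 61.2 CPM and of 34.9, 44.5 and 26.7 CPM. Ngfr, Slco2b1, Abca6, Fam198b, Foxr1 and the hemoglobin scavenger receptor Cd163 fell as well, at log2 fold changes of -0.82, -0.82, -0.75, -0.68, -0.66 and -0.65.

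The same comparison in Rubcn KO libraries called 1893 genes (12.8%), 963 higher (6.50%) and 930 lower (6.28%), with libraries that did not overlap in 33.9% of genes; 1 KO library at 30 min held 9.73 M counts. Of the 2212 genes that rose in wild type, 2007 had the same sign in KO and 805 were called there in the same direction, against 3 called in the opposite one. Of the 2184 that fell, 2073 had the same sign and 801 were called. The 3 opposite rises of at least 2-fold were Igfbp3, Sfrp2 and Sfrp4. Among the 248 rises of at least 2-fold, the 164 called without replicate 3 at 4 h had the same sign in KO in 154, and the 84 that were not had it in 19. All 45 interferon-stimulated genes rose in KO, at a median of 0.89, and Rsad2 stood at 4.504, 3.48 and 5.69 CPM at 30 min and 46.9, 39.7 and 42.1 at 4 h there. Genes chosen by their call in KO, which is free of the choice in wild type, had medians of 0.27 in KO and 0.30 in wild type for the 963 rises and of -0.21 and -0.25 for the 930 falls.

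The difference between the wild type and KO changes was tested gene by gene and was called in 2 of 14808 genes (0.0135%). Mmp14 (Entrez 17387, chromosome 14, 54431598 to 54442456), a membrane-bound matrix metalloproteinase, stood at 50.4, 49.7 and 51.4 CPM at 30 min and 119, 127 and 133 at 4 h in wild type, and at 53.5, 71.6 and 64.7 and 111, 101 and 104 in KO. It rose in both, by 1.32 ± 0.07 and 0.74 on the log2 scale, and the difference was 0.58 ± 0.09 (adjusted p = 0.00904). The other gene, the prostaglandin E synthase Ptges, was below 5 CPM and is named because only 2 genes were called: it stood at 0.728, 0.571 and 0.660 CPM and 2.62, 2.85 and 2.78 in wild type and at 1.22, 1.81 and 0.965 and 1.97, 1.64 and 1.68 in KO, a difference of 1.77 ± 0.29 (adjusted p = 0.00904). At an unadjusted p under 0.05 there were 1352 genes, and DESeq2 called 40. For Cd40, at log2 1.98 in wild type and 1.15 in KO, the difference had an adjusted p of 0.507, and for Nfkbia, at 0.52 and 0.26, of 0.187.

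Promoter letters and gene length were compared between the fates, for 11585 genes with a RefSeq promoter of 300 bases (250 before to 50 after the start). An ISRE match (TTTCNNTTTC, either strand) stood in 3.94% of all promoters, in 10.6% of those of late rises, in 19.4% of late rises of at least 2-fold and in 21 of 35 promoters of the interferon-stimulated genes. An NF-kB match (GGGNNTTTCC, either strand) stood in 2.08% of all promoters, in 6 of 64 of the rises that grew and in 7 of 24 of the NF-kB list. It stood in 5 of 371 promoters of the rises that faded and in 3 of 117 of the rises that held. It also stood in 4.92% of late rises and in 2 of 33 promoters of the falls that grew. An AP-1 match (TGANTCA, either strand) stood in 6.66% of all promoters, in 9.40% of late rises and in 15.1% of late rises of at least 2-fold. The heat shock element GAANNTTCNNGAA stood in 0.578% of all promoters and in 4 of 14 of the heat shock list. These shares are counts of letters without a test, and those of late rises of at least 2-fold were not recounted without replicate 3 at 4 h. The genomic span of the genes also differed: the median was 20.4 kb over all genes, 14.0 kb for rises that grew and 14.3 kb for late rises, but 37.2 kb for rises that faded and 39.7 kb for late falls, with falls that faded at 19.5 kb.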

How the data were processed

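Messenger RNA libraries of FLT3L-grown bone marrow dendritic cells were made with a poly(A) kit that does not mark strand, per the labels' protocols, so reads from overlapping or antisense genes cannot be told apart, and near-identical copies (Ifit3 and Ifit3b, Hspa1a and Hspa1b, class I genes) are uncertain. The authors deposited raw read counts per gene, with no normalization, for 30 libraries of 9.73 to 51.6 M counts. The submitters' processing notes name STAR 2.5, Subread, featureCounts 1.5.0-p1, DESeq2 and the mm10 assembly, without saying what each did.

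All 30 libraries were fitted in 1 edgeR 4.0.16 quasi-likelihood model (R 4.3.3) with a mean for each of 10 groups, TMM scaling and the default filter on low counts by group, which left 14808 of 25611 genes. Contrasts were 4 h against 30 min, 30 min and 4 h against untreated, the same in KO, and the difference between genotypes, with Benjamini-Hochberg adjustment over all tested genes and a threshold of 0.05. The 30 min and untreated libraries are shared between the contrasts that define a fate. A set of 24 rows whose symbol is not unique stayed out of the lists, and some list members are counted but not reported by name here. Each standard error was taken from the fold change and its F statistic. The scripts were tested on simulated data.

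The members of the gene lists, the marker lists and the comparison itself were chosen with earlier results of these data known. Genes named beyond the lists were, by rule, those of at least 5 CPM at one time: the 15 largest rises and falls, without overlap between the times, the 5 largest early changes of each fate and direction, up to 5 members of each list and any list member whose role orders the account; other genes named were chosen after their values were seen. Replicate numbers were checked for pairing: deviations of same-numbered libraries correlated at 0.31, -0.20 and 0.15 between 4 h and 30 min, and at 0.60, -0.15 and 0.50 between 30 min and untreated, so these were not treated as paired; between 4 h and untreated they were 0.41, 0.15 and 0.29, over 0.1 in every pair. Alternatives were DESeq2 1.42.0, other scalings, filters and sets of libraries, a replicate block, and each library left out.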

Additional observations from a re-analysis of the deposited data

Results flagged for a closer look

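The change from 30 min to 4 h of OVA differed between Rubcn WT and Rubcn KO cells for 2 genes by a test of the difference itself. For Mmp14 the rise was larger in Rubcn WT by 0.58 on the log2 scale, with all 3 libraries at 4 h above all 3 KO libraries at 4 h. For Ptges it was larger in Rubcn WT by 1.77 on the log2 scale, at levels of 0.571 to 2.85 CPM in Rubcn WT. The number of genes with such a difference by edgeR was 75 without KO 30 min replicate 1, and 0 without WT 30 min replicate 2, without KO 30 min replicate 2 or without KO 4 h replicate 2.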

How the results depend on the processing

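In 4 h against 30 min, no called change of a named gene reversed under any alternative run, and 19 of 156 named genes crossed the threshold under at least 1 of them. The number of early calls was 833 (KO 246) when only the compared groups were fitted. The number of genes that differed between genotypes was 22 with no filter, 10 without the Jurkat libraries and 40 with DESeq2. With replicate numbers as a block, 4524 genes were called at 4 h against 30 min and 1688 at 30 min against untreated. At 4 h against untreated 3636 were called, and the late genes, first called at 4 h, numbered 2179. In KO 1993 were called at 4 h against 30 min. In the same fit 10 genes differed between genotypes, and 871 faded, 130 grew and 363 held. Among early changes of at least 1.5-fold, 30 faded, 20 grew, 36 held (23 closely) and 21 were unresolved, and among those chosen in KO libraries 254 faded, 115 held (112 closely) and 105 were unresolved. Leaving out 1 library at a time gave 3147 to 3932 genes for 4 h against 30 min, 903 to 1847 for 30 min against untreated, 2594 to 3400 for 4 h against untreated, 1225 to 1456 and 173 to 710 for the first 2 in KO, and 0 to 75 for the difference. It gave 474 to 870 faded, 71 to 123 grown, 187 to 486 held (183 to 466 closely), 147 to 464 unresolved and 1590 to 2070 late genes. The KO count of 4 h against 30 min was 1225 without KO 30 min replicate 2 and 1226 without KO 4 h replicate 3, and the KO early count 173 without KO 30 min replicate 2. The causes were not tested beyond the smaller number of libraries. With 3 libraries a group, a gene that held or was unresolved may have moved by any amount within its interval.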
